A study of Mus musculus with 16 samples.

Results

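The Toll-like receptors examined here are the 10 mouse genes Tlr1 to Tlr9 and Tlr13, chosen by name. Of these, 9 had a row with a single gene symbol among the 19938 genes of the array, and each of the 9 had 1 such row. Tlr5 is not analysed here. Expression was measured in liver RNA of 16 samples, 7 from Pdgf-c transgenic mice and 9 from wildtype mice, all of the C57BL/6 background, with 1 Affymetrix Mouse Gene 1.0 ST array each. The protein made from Pdgf-c is a platelet-derived growth factor that binds receptors on fibroblasts and hepatic stellate cells, and the study asked about the part of stromal cells in liver tumours. The labels give no age, sex or promoter of the transgene, and they name no treatment for either group.

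Toll-like receptors are membrane proteins of innate immunity that bind molecules of microbes and of damaged cells. Those of the cell surface read bacterial lipids and proteins, and those of endosomes read nucleic acids. Most signal through the adaptor Myd88 to NF-kB, which switches on inflammatory cytokines, while Tlr3 signals through the adaptor Ticam1 to interferon genes. In the liver they are known from Kupffer cells and other macrophages, dendritic cells, sinusoidal endothelium, stellate cells and, in part, hepatocytes.

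The cell type label reads stromal cells, but the extraction protocol describes total hepatic RNA. Alb, the albumin gene of hepatocytes, averaged 13.54 ± 0.0366 in transgenic arrays and 13.56 ± 0.0777 in wildtype arrays (SD, n = 7 and 9) on the log2 intensity scale, at the top of the table, so the samples are described as whole liver. In RNA of a whole tissue, fewer cells of a type and less RNA per cell cannot be told apart. The Pdgfc row read 6.13, 6.53 and 6.63 (lowest, median and highest) in transgenic arrays, against 5.76, 6.00 and 6.19 in wildtype arrays, a difference of 0.44 ± 0.0873 (SE; limma adjusted p = 0.00132), and whether it reads the transgene is not given. Array medians lay between 5.20 and 5.36. The first principal component separated the groups, and transgenic array 1 and wildtype array 9 stood at the ends of the second. The labels do not say that the samples came from separate animals, so p-values measure the spread between these samples. For arrays, their number limits the precision.

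Toll-like receptor rows were higher in transgenic livers in 7 of 9 cases and lower in none at an adjusted p of 0.05 (limma, Benjamini-Hochberg over all 35557 rows). The 7 were Tlr1, Tlr2, Tlr3, Tlr4, Tlr7, Tlr8 and Tlr13, and the changes ran from 1.23-fold for Tlr8 to 1.95-fold for Tlr1. Over all genes 12.1% were called higher and 11.1% lower, 23.2% in all, and over all rows 10.6% and 8.26%. The median difference of the 9 receptors was 0.53 on the log2 scale, against -0.04 over all genes, with quartiles at -0.13 and 0.08. In 5 receptors every transgenic array lay above every wildtype array, which held for 5.43% of all genes, while 3.65% of genes had groups apart in the other direction. The rows were dim to moderate: their mean levels lay between the 25th and the 63.5th percentile of the table, and 5 of the 9 lay below its median of 5.25. Levels of different rows depend on their probes and are not ranked against each other. Differences and levels below are on the log2 intensity scale, with differences as transgenic minus wildtype.

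**Figure D1:**
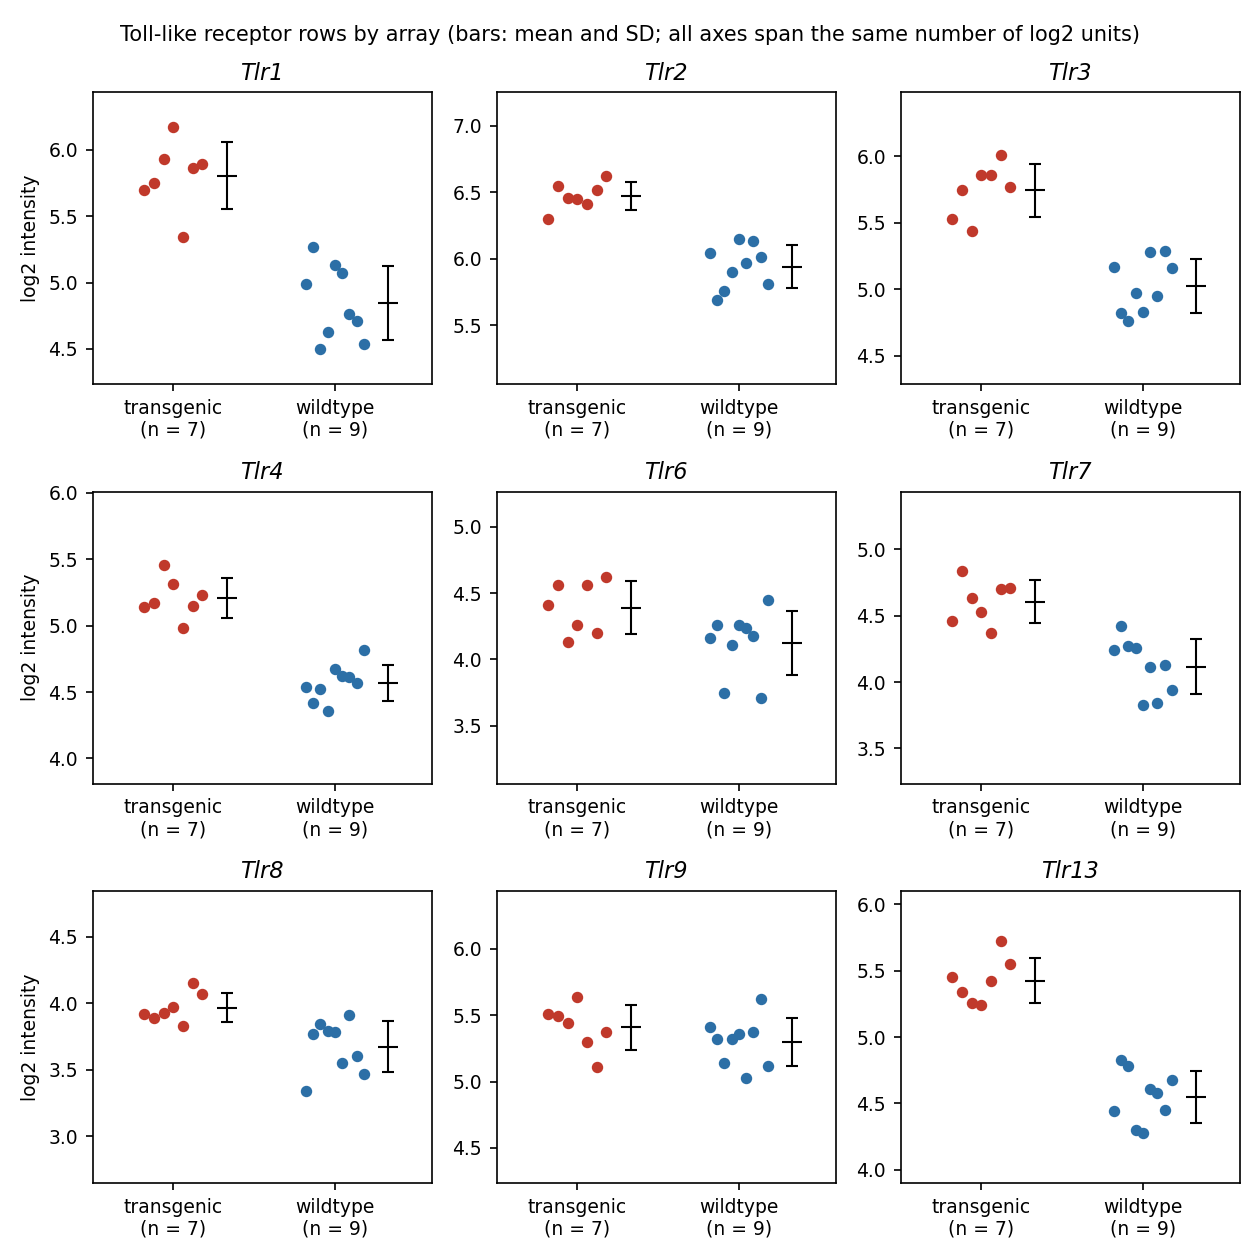
Log2 intensity of the 9 measured Toll-like receptors (y axis) in each of 7 transgenic and 9 wildtype arrays (points), with the mean and SD of each group beside them. The groups do not overlap for Tlr1, Tlr2, Tlr3, Tlr4 and Tlr13, and overlap for Tlr6, Tlr7, Tlr8 and Tlr9.

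Among receptors of the cell surface, Tlr2, Tlr1, Tlr6 and Tlr4 were measured. Tlr2 is the shared partner for bacterial lipoproteins and lipoteichoic acid and pairs with Tlr1 or Tlr6. Tlr2 read 6.30, 6.46 and 6.62 (lowest, median and highest) in transgenic arrays, against 5.69, 5.97 and 6.15 in wildtype arrays. All 7 transgenic values lay above all 9 wildtype values, and the difference was 0.53 ± 0.0729 (SE; 1.45-fold; limma adjusted p = 3.32e-05). Its transgenic values had the smallest spread of the 9 receptors, with an SD of 0.104.

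Tlr1, the partner of Tlr2 for triacylated lipopeptides, had the largest difference of the family. It read 5.34, 5.86 and 6.17 in transgenic arrays, against 4.50, 4.76 and 5.27 in wildtype arrays. The groups did not overlap, although the lowest transgenic array and the highest wildtype array were close together. The difference was 0.96 ± 0.127 (1.95-fold; limma adjusted p = 2.32e-05).

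Tlr6, the partner of Tlr2 for diacylated lipopeptides, did not pass the test. It read 4.13, 4.41 and 4.62 in transgenic arrays, against 3.71, 4.18 and 4.45 in wildtype arrays. The groups overlapped, with 3 of 7 transgenic values above the highest wildtype one. The difference was 0.27 ± 0.11 (limma adjusted p = 0.108), with a 95% interval, unadjusted over rows, from 0.03 to 0.50.

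Tlr1 and Tlr6 are close paralogs and stand next to each other in the RefSeq gene order of GRCm38.p6, as do Tlr8 and Tlr7. The change of each pair was therefore compared within arrays, a comparison chosen after the values were seen. Tlr1 minus Tlr6 averaged 1.42 ± 0.391 in transgenic arrays and 0.72 ± 0.291 in wildtype arrays (SD, n = 7 and 9). The shift was 0.69 (exact two-sided permutation test over the 11440 ways to split the arrays, p = 8.74e-04, adjusted over the 2 pairs 0.00175). Since the pairs were picked with these values known, the p-value describes the shift and lends it no support. In these arrays the groups differed more in the Tlr1 row than in the Tlr6 row, which lay at percentile 32.1 of the table. The values of the groups still overlapped, from 0.79 to 1.91 in transgenic and from 0.09 to 1.01 in wildtype arrays. Whether probes of either row also read the other transcript was not tested.

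Tlr4, the receptor for bacterial lipopolysaccharide, read 4.98, 5.17 and 5.46 in transgenic arrays, against 4.36, 4.57 and 4.82 in wildtype arrays. Its lowest transgenic value lay above its highest wildtype value. The difference was 0.64 ± 0.0763 (1.55-fold; limma adjusted p = 7.52e-06).

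Among the receptors of endosomes, Tlr3, Tlr7, Tlr8, Tlr9 and Tlr13, 4 of 5 were higher, against 12.1% of all genes. Tlr3, which binds double-stranded RNA, read 5.44, 5.77 and 6.01 in transgenic arrays, against 4.76, 4.97 and 5.29 in wildtype arrays. The groups did not overlap, and the difference was 0.72 ± 0.0997 (1.65-fold; limma adjusted p = 3.73e-05).

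Tlr13, which in mice recognises bacterial ribosomal RNA, had the smallest p of the family. It read 5.24, 5.42 and 5.72 in transgenic arrays, against 4.28, 4.58 and 4.83 in wildtype arrays. The lowest transgenic value stood clear of the highest wildtype value. The difference was 0.87 ± 0.0936 (1.83-fold; limma adjusted p = 2.02e-06).

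Tlr7, a sensor of single-stranded RNA, read 4.37, 4.63 and 4.84 in transgenic arrays, against 3.83, 4.13 and 4.42 in wildtype arrays. The groups overlapped by little, since 6 of 7 transgenic arrays exceeded all wildtype arrays. The difference was 0.49 ± 0.0959 (1.4-fold; limma adjusted p = 0.00114).

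Tlr8, a close relative of Tlr7, had the smallest change among the receptors called, on a row at the 25th percentile of the table. It read 3.83, 3.93 and 4.15 in transgenic arrays, against 3.34, 3.77 and 3.91 in wildtype arrays, and 5 of 7 transgenic arrays exceeded all wildtype arrays. The difference was 0.29 ± 0.086 (1.23-fold; limma adjusted p = 0.0209). The call was lost with each array centred on its median (0.24; limma adjusted p = 0.0533) and with the replicate number as a block (0.26; limma adjusted p = 0.102). Tlr7 minus Tlr8 within arrays averaged 0.64 ± 0.151 in transgenic and 0.44 ± 0.295 in wildtype arrays (SD, n = 7 and 9), a shift of 0.19 that did not pass (exact permutation p = 0.141, also after adjustment over the 2 pairs), except without wildtype array 1 (shift 0.25, exact permutation p adjusted over the pairs 0.0272).

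Tlr9, the receptor for unmethylated CpG DNA, did not pass the test. It read 5.11, 5.44 and 5.64 in transgenic arrays, against 5.03, 5.32 and 5.62 in wildtype arrays. The ranges nearly coincided, with 1 transgenic array above all wildtype arrays and 1 wildtype array below all transgenic ones. The difference was 0.11 ± 0.0885 (limma adjusted p = 0.454), with a 95% interval from -0.08 to 0.30. It was 0.06 after quantile normalization and with centring, and 0.07 without transgenic array 4.

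**Figure D2:**
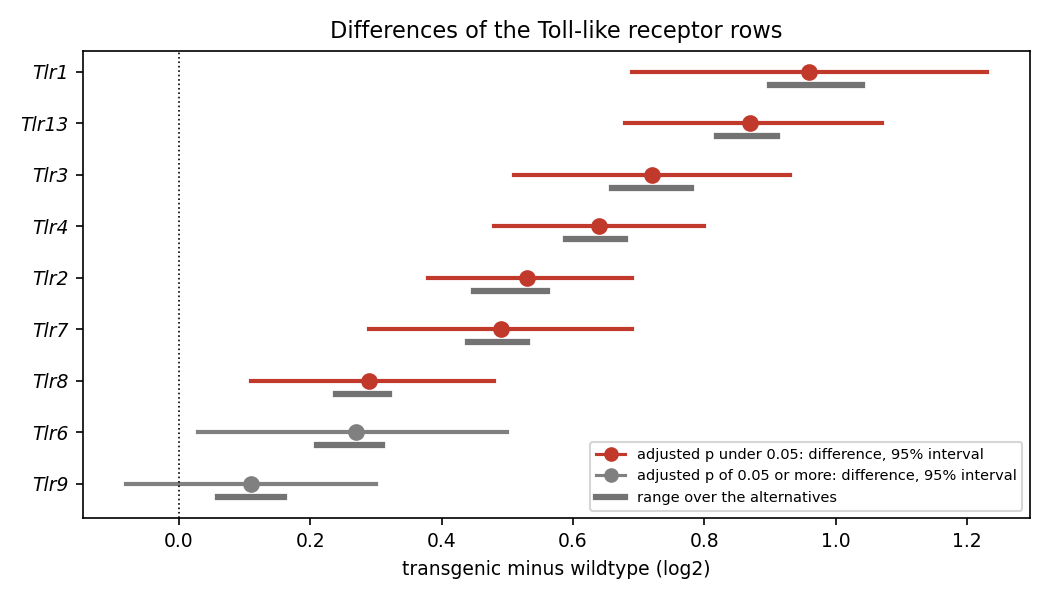
Difference between transgenic and wildtype arrays (x axis, log2) for each Toll-like receptor (y axis), with its 95% interval (line through the point) and the range of the difference over the alternative analyses (grey bar below it). The differences run from 0.11 for Tlr9 to 0.96 for Tlr1, and red marks the 7 with an adjusted p under 0.05.

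By place in the cell, 3 of 4 surface receptors were called higher, against 12.1% of all genes. Their median difference was 0.58, against -0.04 over all genes, with a range from 0.27 to 0.96. Of 5 endosomal receptors 4 were called higher, with a median of 0.49 and a range from 0.11 to 0.87. Both ranges span nearly the whole range of the family. Within the groups the receptors did not vary together: after subtraction of each group mean, Pearson's r over the 16 arrays had a median of 0.00892 over the 36 pairs of receptors, and 18 pairs were positive. The values ran from -0.605 for Tlr9 with Tlr13 to 0.291 for Tlr2 with Tlr3. These correlations are a description, and the points share arrays and normalization.

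For each receptor that was called, the genes most like it within the groups were sought among 11553 other genes with a mean above the median of the table, by Pearson's r over the 16 arrays after subtraction of group means. For Tlr1 these were Siglece, Csrp1 and Icam1 (r from 0.839 to 0.853). For Tlr2 they were Mlh3, Rab3d and Zfp53 (0.818 to 0.861), and for Tlr4 Sema4d, Dtx3 and Syncrip (0.801 to 0.825). For Tlr3 they were Trim12a, Pced1a and E2f6 (0.774 to 0.778), for Tlr7 Kifbp, Ipo4 and Ccn2 (0.778 to 0.807), for Tlr8 Dbi, Ppia and Mgmt (0.734 to 0.75) and for Tlr13 Celf2, Cox7a2 and Faap24 (0.78 to 0.801). Being the highest of many, these values have no test, and no gene appeared for more than 1 receptor.

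Upstream sequences from RefSeq (GRCm38.p6) are given as a description of the genes and were matched for 7 of the 9 receptors, in 9 sequences; those of Tlr4 and Tlr7 are not shown. Each holds the 250 bases before an annotated start, read 5′ to 3′ on the strand of the gene. Those of 3 receptors whose groups did not overlap, Tlr2, Tlr3 and Tlr13, are shown with that of Tlr9, which was not called. They lie at chr3:83841609-83841858, minus strand, at chr8:45410381-45410630, minus strand, at chrX:106143025-106143274, plus strand, and at chr9:106222348-106222597, plus strand. Capitals mark matches to 3 motifs searched on both strands: the core of the myeloid factor PU.1 (GAGGAA), the interferon response element (GAAA, any 2 bases, GAAA) and the NF-kB motif.
Tlr2: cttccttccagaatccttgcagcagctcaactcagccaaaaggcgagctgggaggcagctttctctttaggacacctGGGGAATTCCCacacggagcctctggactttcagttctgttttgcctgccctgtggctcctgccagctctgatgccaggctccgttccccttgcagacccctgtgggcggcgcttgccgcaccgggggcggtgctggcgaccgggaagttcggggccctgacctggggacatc
Tlr3: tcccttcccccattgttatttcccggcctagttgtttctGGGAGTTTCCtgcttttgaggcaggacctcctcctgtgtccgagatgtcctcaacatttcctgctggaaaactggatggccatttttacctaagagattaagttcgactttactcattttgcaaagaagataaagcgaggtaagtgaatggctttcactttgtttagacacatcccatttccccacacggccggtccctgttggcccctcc
Tlr13: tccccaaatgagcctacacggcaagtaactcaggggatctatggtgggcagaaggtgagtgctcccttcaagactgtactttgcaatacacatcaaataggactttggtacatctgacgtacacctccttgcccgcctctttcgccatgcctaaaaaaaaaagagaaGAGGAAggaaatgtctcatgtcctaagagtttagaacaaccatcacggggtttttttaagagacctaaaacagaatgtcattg
Tlr9: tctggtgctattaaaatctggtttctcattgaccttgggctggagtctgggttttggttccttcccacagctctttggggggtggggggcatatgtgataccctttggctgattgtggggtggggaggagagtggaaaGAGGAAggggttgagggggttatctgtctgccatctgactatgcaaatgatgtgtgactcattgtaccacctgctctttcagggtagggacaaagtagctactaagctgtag
The NF-kB motif was found for 2 of the 7 receptors, Tlr2 and Tlr3, and for 4.46% of the 27025 genes with upstream sequences of this length (3.9% of their 32851 sequences). In Tlr2 the match is a run that the motif fits in 3 overlapping ways. The PU.1 core was found for 4 of the 7, Tlr1, Tlr8, Tlr9 and Tlr13, and for 25.9% of all genes (23.3% of sequences). The interferon response element was found for Tlr6, which was not called, and for 3.46% of all genes (2.98% of sequences). A match is a run of letters, not a binding site. Of the 2 receptors with a sequence that were not called, Tlr9 held the PU.1 core and Tlr6 did not, and of the 5 that were called, Tlr2 and Tlr3 did not hold it.

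The rest of the pathway was read next, from lists drawn up with earlier results of these data known. Among the adaptors that carry the signal from the receptors, none of 6 was higher and 1 was lower, against 12.1% and 11.1% of all genes, shares at which so short a list is not set apart by these counts. Myd88, used by most of the family, averaged 7.52 ± 0.156 in transgenic and 7.57 ± 0.146 in wildtype arrays, a difference of -0.04 ± 0.0743 with a 95% interval from -0.20 to 0.11. Ticam1, the adaptor of Tlr3, differed by 0.03 ± 0.0604 (interval -0.09 to 0.16). Tirap, which bridges Tlr2 and Tlr4 to Myd88, fell: it averaged 6.22 ± 0.175 in transgenic and 6.53 ± 0.136 in wildtype arrays (difference -0.30 ± 0.0778, limma adjusted p = 0.00926).

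Of 14 kinases, ubiquitin ligases and transcription factors measured downstream, none was called in either direction, against 23.2% of all genes. Their median difference was -0.02, against -0.04 over all genes. Irak4, Traf3, Chuk and Nfkb1 were listed too but were not measured. The smallest p belonged to Ikbkg, the regulatory subunit of the IkB kinase, at -0.24 ± 0.108 (limma adjusted p = 0.148), and at -0.14 without transgenic array 1 and wildtype array 9. Irak1 and Traf6, a kinase and a ligase downstream of Myd88, differed by -0.02 ± 0.0475 and -0.01 ± 0.0531. Their 95% intervals stayed within -0.13 and 0.10.

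Of 8 co-receptors and ligand carriers, 3 rose and 1 fell, against 12.1% higher and 11.1% lower among all genes. The count of those that fell was near that share. Ly86 and Cd180, which encode the pair MD-1 and RP105 that modulates lipopolysaccharide signals on macrophages and B cells, both rose. Ly86 averaged 8.20 ± 0.201 in transgenic and 6.83 ± 0.33 in wildtype arrays (1.37 ± 0.131; 2.58-fold; limma adjusted p = 5.11e-07), and Cd180 averaged 6.12 ± 0.192 in transgenic and 5.15 ± 0.207 in wildtype arrays (0.97 ± 0.0986). Clec7a, the fungal glucan receptor that works beside Tlr2, rose by 0.90 ± 0.0973. Lbp, the plasma protein that hands lipopolysaccharide to Cd14 and is made by hepatocytes, fell by 0.66 on the log2 scale: it averaged 9.59 ± 0.381 in transgenic and 10.25 ± 0.116 in wildtype arrays (limma adjusted p = 6.25e-04). In each of these 4 genes the groups did not overlap. Over all genes, 5.43% had groups apart in the higher direction and 3.65% in the lower. Cd14 and Ly96, co-receptors of Tlr4, were not called. Cd14 stood at 0.16 ± 0.118 (limma adjusted p = 0.401) and Ly96 at -0.08 ± 0.128 (limma adjusted p = 0.723), with 95% intervals up to 0.41 and 0.19.

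Of 10 chaperones, trafficking proteins and endosomal proteases, 5 rose and none fell, against 12.1% higher and 11.1% lower among all genes. The list median was 0.12, against -0.04 over all genes. Unc93b1, which brings the nucleic acid receptors to endosomes, averaged 7.95 ± 0.0693 in transgenic and 7.68 ± 0.112 in wildtype arrays (0.27 ± 0.0524; limma adjusted p = 0.00101), and the groups did not overlap. The other 4 were lysosomal proteases, a class that cleaves these receptors. Ctss, cathepsin S, rose 3.02-fold (1.59 ± 0.114) and Ctsk, cathepsin K, 2.72-fold (1.45 ± 0.0881), while Lgmn and Ctsl rose by 0.35 ± 0.0824 and 0.33 ± 0.0654. Ctsb, a further protease of the list, was not called (-0.04 ± 0.0374, limma adjusted p = 0.518). Hsp90b1, the folding chaperone of the family, differed by -0.08 ± 0.0394 (limma adjusted p = 0.163). Lrrc59, Cnpy3 and Slc15a4 were not called either, at -0.19, -0.12 and -0.10.

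Of 11 negative regulators, 2 rose and 4 fell, against 12.1% higher and 11.1% lower among all genes. The count of those that rose was near that share. Sigirr, a receptor of the same superfamily that dampens the signal, fell most among those called (-0.52 ± 0.08; limma adjusted p = 1.05e-04), with 7.44 ± 0.172 in transgenic and 7.97 ± 0.159 in wildtype arrays. Tollip and Nfkbia, which encode an adaptor that restrains Irak1 and the inhibitor of NF-kB, fell by 0.24 and 0.33 on the log2 scale, and Tank fell by 0.22. Tnfaip3, the ubiquitin-editing inhibitor A20, rose by 0.26 ± 0.0506. Atf3, a repressor induced by the receptors, was at 0.37 ± 0.114 (limma adjusted p = 0.03). The Atf3 call was lost after quantile normalization (limma adjusted p = 0.0776), with centring (0.0527) and with the replicate number as a block (0.115). Leaving out 1 array also ended it for transgenic arrays 2, 4 and 6 (limma adjusted p-values 0.066, 0.069 and 0.052) and for wildtype arrays 1 and 4 (0.0525 and 0.0517), as did leaving out transgenic 1 with wildtype 9 (0.0613).

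Of 22 genes that these receptors are known to induce, 4 rose, none fell and 18 did not pass the test. With 12.1% of all genes higher, the 4 are not far from the share of the whole table and are given as a description. The count was 6 with array weights and without transgenic array 1, and 3 with the replicate number as a block. The 4 were the chemokine genes Ccl3 (2.23-fold, 1.16 ± 0.131) and Ccl5 (1.91-fold, 0.94 ± 0.0986), the costimulatory receptor Cd40 (0.48 ± 0.0656) and the adhesion molecule Icam1 (0.31 ± 0.0824; limma adjusted p = 0.0112, and 0.0946 with the replicate number as a block). The list median was 0.17, against -0.04 over all genes. The differences of the 18 that were not called ran from -0.21 for Il6 to 0.58 for Lcn2, the siderophore-binding lipocalin, whose SE of 0.256 was the largest of the list (limma adjusted p = 0.135). The interferon-induced chemokine gene Cxcl10 stood at 0.46 ± 0.173 (limma adjusted p = 0.0715) and the cytokine gene Il1b at 0.25 ± 0.104, while Ifnb1 stood at 0.00 ± 0.101 and Nos2 at -0.12 ± 0.0647. The rows of Il6 and Il10 lay below the 20th percentile of the table (3.46) in both groups, where a change may not show.

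Sensors of other families gave a further comparison. Of 12 measured, 3 rose and 1 fell, with a median difference of 0.09, against 12.1% higher and 11.1% lower and a median of -0.04 among all genes. Pycard, the adaptor of inflammasomes, rose by 0.61 ± 0.0801, Aim2, a sensor of cytosolic DNA, by 0.48 ± 0.0978 and Ddx58, the RNA sensor RIG-I, by 0.47 ± 0.088. Mavs, the mitochondrial adaptor of Ddx58, was at -0.13 ± 0.0424 (limma adjusted p = 0.0357). That call was lost after quantile normalization (limma adjusted p = 0.172), without the variance trend (0.0644) and with the replicate number as a block (0.0847). It was also lost without transgenic array 4, 6 or 7 (limma adjusted p-values 0.0821, 0.0575 and 0.0823) or wildtype array 2, 3, 4, 5 or 8 (0.0584, 0.0619, 0.0652, 0.0584 and 0.0656). Nod1 and Nod2, sensors of bacterial peptidoglycan, differed by -0.14 ± 0.0787 and -0.04 ± 0.0787. Whether the receptors moved more than these sensors was not tested.

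**Figure D3:**
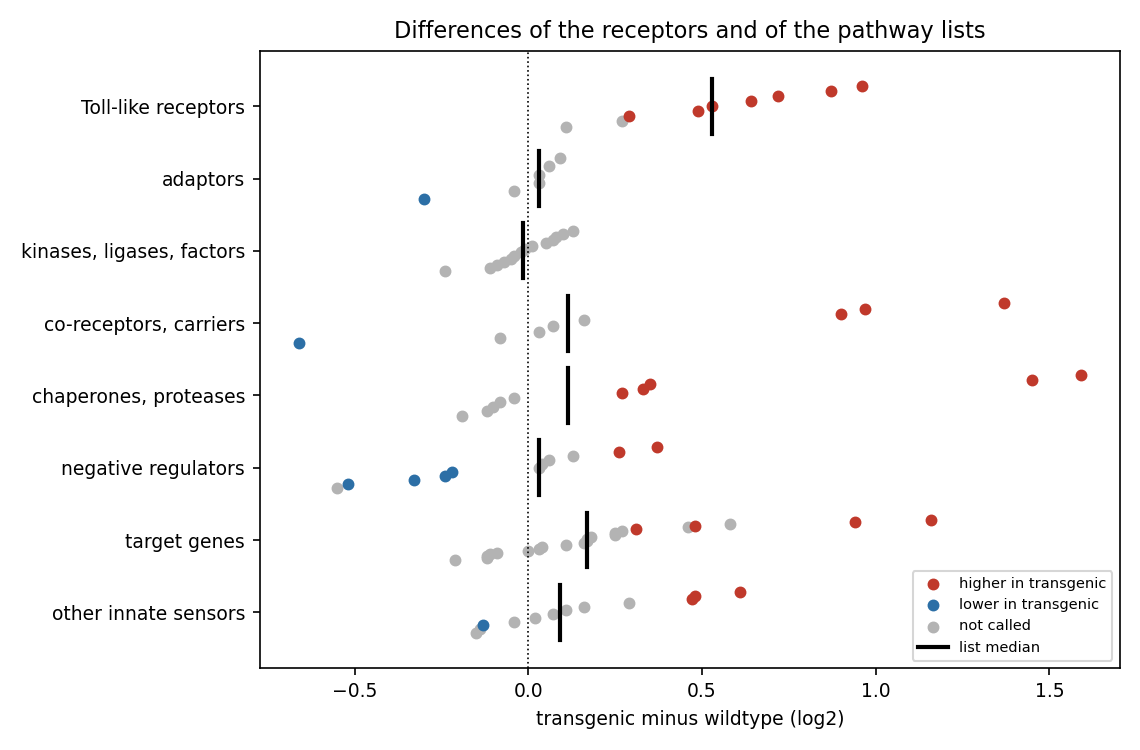
Difference between transgenic and wildtype arrays (x axis, log2) of each measured gene of the Toll-like receptors and of 7 lists around them (y axis); each point is a gene, coloured by its call, and the black bar is the list median. The receptors' median is 0.53, and that of the adaptors and of the downstream kinases, ligases and factors is 0.03 and -0.02.

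Markers of the cells that carry Toll-like receptors were read as well, and their part in the differences above was not tested. Over all genes 12.1% were called higher and 11.1% lower, the shares beside which each count of markers below stands. All 5 general leukocyte genes rose, with Ptprc, which encodes CD45, at 0.97 ± 0.0905. The mean level of that list ran from 7.43 to 7.93 in transgenic arrays, against 6.38 to 6.93 in wildtype arrays. The called receptors differed by 0.29 to 0.96.

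Macrophage markers split. All 7 markers of monocytes and monocyte-derived macrophages rose, led by Ms4a7 (2.26 ± 0.128) and Cx3cr1 (2.20 ± 0.106), and their mean level ran from 6.21 to 6.67 in transgenic arrays, against 4.76 to 5.10 in wildtype arrays. All 6 markers of resident Kupffer cells fell, led by Cd5l (-2.83 ± 0.296) and Cd163 (-2.76 ± 0.121), and their mean level ran from 5.10 to 6.16 in transgenic arrays, against 7.19 to 8.11 in wildtype arrays. Of 5 genes shared by macrophages, 3 rose, of which Cd68 and Csf1r lost the call with the replicate number as a block (limma adjusted p-values 0.0542 and 0.0672), and their mean level overlapped between the groups, with 7.59 to 8.13 in transgenic and 7.07 to 7.70 in wildtype arrays. Adgre1, which encodes F4/80, differed by 0.26 ± 0.156 (limma adjusted p = 0.284).

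Among dendritic cells, 4 of 6 conventional markers rose, with Xcr1 at 0.91 ± 0.0904 and Clec9a at 0.75 ± 0.0947, both genes of the cross-presenting subset. Their mean level ran from 5.22 to 5.39 in transgenic arrays, against 4.63 to 4.94 in wildtype arrays. Of 4 plasmacytoid markers, cells known for Tlr7 and Tlr9, 1 rose, against 12.1% of all genes. So short a list is not set apart by this count. The marker was Bst2, which interferon also induces, at 0.18 ± 0.0448. Its call was lost with each array centred on its median (0.13, limma adjusted p = 0.0937) and with the replicate number as a block (limma adjusted p = 0.0878). The plasmacytoid lectin Siglech differed by 0.24 ± 0.0952 (limma adjusted p = 0.0947). That list's mean level overlapped, with 6.24 to 6.51 in transgenic and 6.21 to 6.35 in wildtype arrays.

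Of 4 B cell markers 3 rose, of which Cd79a lost the call with centring and without transgenic array 6 (limma adjusted p-values 0.0511 and 0.0507), with Ms4a1 at 0.62 ± 0.168 and Cd79b at 0.44 ± 0.0741, and the mean level of the list ran from 4.66 to 5.02 in transgenic arrays, against 4.27 to 4.70 in wildtype arrays. Of 6 neutrophil markers 5 rose, led by S100a8 (2.99 ± 0.245), with list levels from 5.07 to 5.95 in transgenic and from 4.20 to 4.57 in wildtype arrays. Among those called, Cxcr2 stood close to the threshold (0.27 ± 0.092, limma adjusted p = 0.0492). Ly6g was not called (0.24 ± 0.145, limma adjusted p = 0.292). Of 5 T and NK cell markers 2 rose, against 12.1% of all genes, a count that does not set so short a list apart. The 2 were Nkg7 (0.84 ± 0.115, limma adjusted p = 3.36e-05) and Cd3g (0.83 ± 0.0985, limma adjusted p = 6.51e-06). Cd3e, Cd8a and Klrb1c were not called. The levels of the T and NK cell list ran from 4.87 to 5.30 in transgenic and from 4.47 to 4.69 in wildtype arrays. No marker was at 0 in these values, and Klrb1c and Cxcr2 lay below the 20th percentile in both groups.

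Markers of other liver cells moved in opposite directions. All 7 stellate cell and fibroblast markers rose, led by Pdgfra (3.17 ± 0.102), with list levels from 8.31 to 8.72 in transgenic and from 6.46 to 7.06 in wildtype arrays. All 6 markers of sinusoidal endothelium fell, with Clec4g at -2.27 ± 0.128 and Dnase1l3 at -1.88 ± 0.107, and with list levels from 6.36 to 6.95 in transgenic and from 7.97 to 8.30 in wildtype arrays. Averaged over its rows, Clec4g stood at -1.16, still called. Of 5 hepatocyte markers 1 rose and 2 fell, against 12.1% and 11.1% of all genes. These counts do not set so short a list apart. Otc, an enzyme of the urea cycle, fell most (-0.51 ± 0.0487; limma adjusted p = 5.50e-07), with 10.71 ± 0.129 in transgenic and 11.21 ± 0.0694 in wildtype arrays and no overlap, and kept its call in all 26 alternatives. The rise, of Apoa1 (0.07 ± 0.0215), lost the call in 10 alternatives, 6 of which dropped 1 array (transgenic 1, 3 and 4, wildtype 1, 4 and 7), and the median difference was -0.02.

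**Figure D4:**
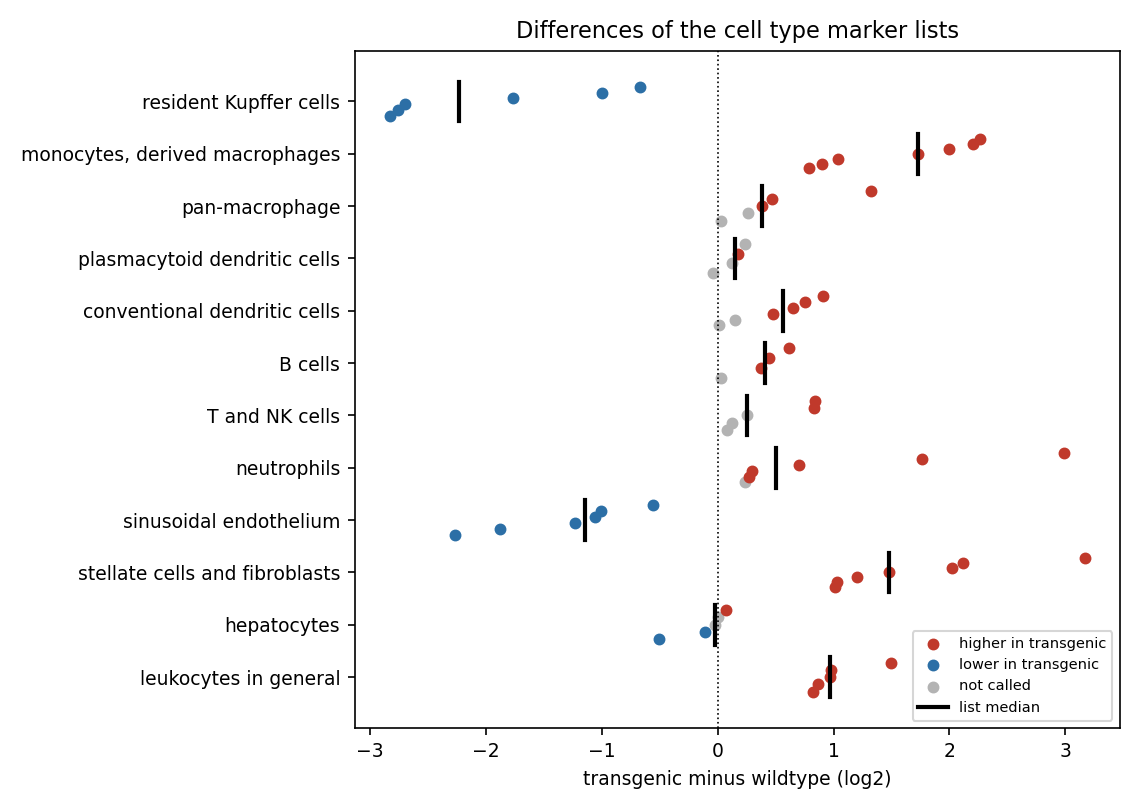
Difference between transgenic and wildtype arrays (x axis, log2) of each measured marker gene for 12 cell types or groups (y axis); each point is a gene, coloured by its call, and the black bar is the list median. The medians run from -2.24 for resident Kupffer cells to 1.73 for monocytes and monocyte-derived macrophages.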

How the data were processed

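Biotin-labelled total hepatic RNA was read on Affymetrix Mouse Gene 1.0 ST arrays. The deposited values, 1 per row and array, were made by the authors with GCRMA, per the submitters' processing notes, and were used as log2 intensities. The log base was read from their range of 0.71 to 14.7, and the GCRMA version is not given in the sources used here.

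Of 35557 rows, 21789 had 1 gene symbol, 1621 several and 12147 were not listed in the probe annotation. Entrez identifiers matched 21698 rows to the RefSeq table, used for names and neighbours, and 0 symbols changed. The row with the highest mean stood for each of 19938 genes.

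The fit was limma 3.58.1 (R 4.3.3; eBayes with trend, two-sided, 14 residual degrees of freedom, no filter), with Benjamini-Hochberg adjustment over all rows and a threshold of 0.05. The code was also run on simulated data with independent noise per row, which does not show how the fit performs on these data. Within-array differences used exact permutation. Plots were drawn with matplotlib 3.10.9. Means are given ± SD and differences ± SE, with n = 7 transgenic and 9 wildtype arrays, and intervals cover 95%.

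The receptors and lists were chosen with earlier results of these data known. A naming rule selected the receptors and, from each list, up to 4 called genes of largest change and those against the majority. Where none was called, it took the gene of smallest p. It also took the 3 genes most like each called receptor. Not every list gene that the rule selected is printed here. Other genes were named after their values were seen.

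Alternatives changed the scaling (quantile, or medians set equal), kept the brighter rows, changed the variance model (no trend, or robust), weighted arrays, set dim values to the 20th percentile, averaged the rows of a gene, blocked on replicate number, or dropped 1 array. A fit without both arrays at the ends of the second principal component was chosen after seeing the data. Whether the replicate numbers pair the samples is not given in the labels.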

Additional observations from a re-analysis of the deposited data

How the results depend on the processing

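The 9 receptors were refitted under 26 alternatives, 16 of which left out 1 array, and 227 of 229 receptor values kept their direction and their side of the threshold. The exceptions were Tlr8 with arrays centred on their medians (0.24) and with the replicate number as a block (0.26). Leaving out 1 array gave 7 receptors higher and 0 lower each time. On rows above the table median 3 receptors were called higher, since that filter left out Tlr4, Tlr6, Tlr7, Tlr8 and Tlr13. The differences of Tlr1 and Tlr13 ran from 0.90 to 1.04 and from 0.82 to 0.91. The median row shifted by -0.03 as deposited, -0.04 after quantile normalization and -0.08 after centring. Over all rows 3785 were higher and 2936 lower (56.3% higher), against 3583 and 3829 (48.3%) after quantile normalization and 2873 and 4688 (38%) after centring; leaving out 1 array gave 3380 to 3957 higher and 2513 to 2984 lower. The shift of Tlr7 minus Tlr8 within arrays ran from 0.13 to 0.25 when 1 array was left out. The labels do not say whether the replicate numbers pair the samples. Deviations of same-numbered arrays correlated at -0.0186 to 0.0859 over 7 pairs, which shows little shared deviation but cannot settle how the samples were handled. Wildtype arrays 8 and 9 have no transgenic array of the same number, so a block on the numbers takes no contrast from them. With the numbers as a block, 6 receptors were higher, rows called higher numbered 3487 and rows called lower 2237; the calls of Tlr8, Atf3, Icam1 and Mavs were lost, as were those of Apoa1, Bst2, Cd68 and Csf1r among the markers. Of the 62 list genes that the naming rule selected, 54 kept their call under every alternative that gave a value and 0 reversed. Signal over background was not analysed here, so how far the dim rows are from it is not given.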

Other observations

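Tlr12, a further receptor of the family that in mice takes part in sensing a parasite profilin, was not among the genes chosen and is named after its values were seen. Its row read 6.91, 7.26 and 7.72 (lowest, median and highest) in transgenic arrays, against 6.10, 6.69 and 6.95 in wildtype arrays. The groups overlapped, and the difference was 0.65 ± 0.129 (SE; 1.56-fold; limma adjusted p = 0.0014).

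No receptor had a value far from the rest of its group: 0 of 18 receptor and group combinations passed a test of the gap between the outermost value and its neighbour.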
